A study of Mus musculus with 6 samples.

Results

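The genes described here are those of the vascular endothelial growth factor (VEGF) system: the receptors Kdr, Flt1 and Flt4, the co-receptors Nrp1 and Nrp2, the ligands Vegfa, Vegfb, Vegfc and Pgf, and Esm1, a secreted proteoglycan made by VEGF-stimulated endothelium. They were taken by symbol from the deposited gene table, and the 10 genes had 1 row each among 30077 rows. The cells were bEnd.3, an endothelial line of mouse brain origin labelled wild type, sequenced as 2 groups of 3 libraries. In one group they were incubated with isolated mitochondria of MLO-Y4, an osteocyte-like mouse line, in 100 µl of culture medium, and the control group received that volume of medium without mitochondria. All cells were collected at 24 h, and the question is what osteocyte mitochondria change in endothelial transcription. The control group received no mitochondria from another source and no other isolated organelle, per the labels, and all 6 libraries come from a single cell line.

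VEGF ligands are dimeric secreted proteins that bind receptor tyrosine kinases on endothelial cells. Kdr (VEGF receptor 2) carries most of the signal for endothelial proliferation, migration and permeability. Flt1 (VEGF receptor 1) binds Vegfa tightly but signals weakly, and its soluble form acts as a decoy. Flt4 (VEGF receptor 3) is the main receptor of Vegfc and is best known from lymphatic vessels. Neuropilins lack a kinase and present ligand to these receptors. Esm1, also called endocan, is enriched in the tip cells that lead vascular sprouts.

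Library totals ranged from 59651087 to 65576084 counts. Any pair within a group differed beyond counting noise (chi-square of 15.2 to 86.4 per gene), and each library was kept as a sample. The labels do not state whether replicates were separate cultures, and p-values therefore measure a spread between samples that may be technical. Reads of an 18S ribosomal RNA locus and of Lars2 took 1.74% to 3.56% of counts in the controls and 4.38% to 7.94% in the mitochondria libraries. These ranges do not overlap, so their part in the results below and that of the treatment cannot be told apart. A fit with this share as a covariate is given below and does not separate them. Of 12 endothelial markers 11 were detected (at least 1 FPKM in at least 3 libraries), among them Pecam1 and Cdh5, and the summed level was 1119 to 1133 FPKM in controls and 1062 to 1126 FPKM with mitochondria. Vwf, von Willebrand factor, was the marker below that level, at 0.328 to 0.574 FPKM. Of 12 osteocyte and osteoblast markers with a row Spp1 alone was detected, Sost stayed at or below 0.0265 FPKM, Bglap had 0 counts in all 6 libraries, and the list summed to 4.63 to 5.49 FPKM in controls and 4.96 to 5.88 FPKM with mitochondria. Of 6 lymphatic markers Lyve1 alone was detected, with sums of 11.0 to 13.8 FPKM and 9.42 to 10.1 FPKM, and Prox1 stayed at or below 0.053 FPKM. Acta2 was the single detected one of 8 mural cell markers (sums of 3.05 to 5.76 and 1.48 to 9.11 FPKM), and none of 5 neural and glial markers was detected (0.0849 to 0.129 and 0.0244 to 0.121 FPKM). Of 6 leukocyte markers Cd68, a lysosomal membrane protein, was detected and rose (log2 fold change 0.55, adjusted p = 0.00212 in edgeR), so that this list summed to 36.9 to 38.9 FPKM in controls and 49.8 to 58.1 FPKM with mitochondria, while Ptprc was at or below 0.0074 FPKM. In bulk RNA, fewer cells of a type and less RNA per cell cannot be told apart.

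All 10 genes were expressed, over a wide range per unit length, as the plot of levels by library shows. FPKM (fragments scaled to transcript length and to the mapped fragments of the library) was used for this order. In controls Kdr stood first at 142 ± 2.76 FPKM (SD, n = 3) and Pgf, placental growth factor, second at 136 ± 3.23 FPKM, and their ranges overlapped. Nrp2 followed at 28.5 ± 0.847 FPKM and Flt4 at 24.5 ± 0.244 FPKM. Vegfb stood at 10.5 ± 0.882 FPKM, Nrp1 at 8.14 ± 0.0807 FPKM and Vegfa at 7.15 ± 0.617 FPKM, each without overlap with its neighbour. Esm1 (4.67 ± 0.610 FPKM) and Flt1 (4.32 ± 0.194 FPKM) overlapped, and Vegfc was lowest at 1.14 ± 0.105 FPKM. In the mitochondria group the order was the same but for 1 exchange, since Flt1 at 4.94 ± 0.241 FPKM then lay above Esm1 at 2.86 ± 0.382 FPKM with no overlap. Nrp1 and Vegfa overlapped in that group. Against all tested genes, Kdr lay at the 97.7th and Pgf at the 97.4th percentile of mean FPKM, Flt1 at the 35.9th and Vegfc at the 2.50th.

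**Figure D1:**
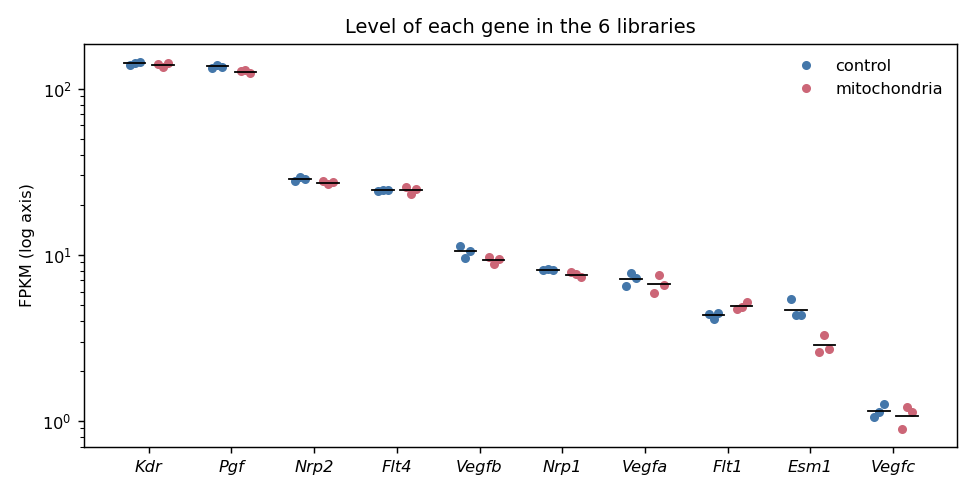
FPKM of the 10 genes in the 3 control (blue) and 3 mitochondria (red) libraries on a log axis, ordered by mean over all libraries, with a black line at each group mean. Kdr and Pgf lie above 120 FPKM in every library, and Esm1 is the gene whose groups are farthest apart.

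None of the 10 genes passed edgeR's quasi-likelihood test at a Benjamini-Hochberg adjusted p under 0.05 over all 11255 tested genes, where 2.09% of genes passed. At an unadjusted p under 0.05 there were 2 (16.1% of all tested genes), Flt1 and Esm1. DESeq2 called the same 2 of 10, with 5.31% of genes called, and limma on log2(FPKM + 1) called 0. In CPM (counts per library size after TMM scaling, the measure compared between groups below), 3 of 10 genes had groups that did not overlap, against 21.1% of all tested genes. These were Flt1 and Flt4, higher with mitochondria, and Esm1, lower. On TPM, which is FPKM rescaled to equal sums, Flt4 was lower (−0.09), and the median of all tested genes was −0.15.

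**Figure D2:**
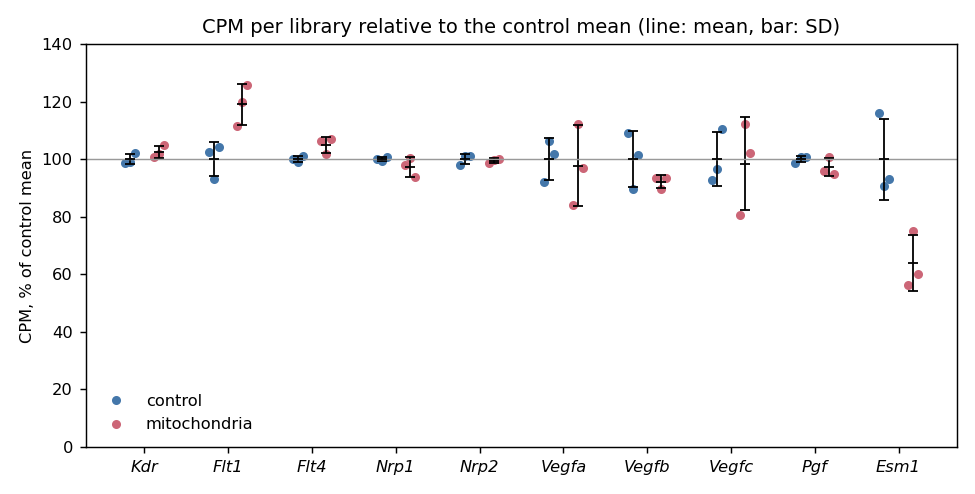
CPM of each gene in each library as a percentage of the control mean, with the group mean and SD (n = 3). The mitochondria libraries lie above the controls for Flt1 and Flt4 and below them for Esm1, and the groups overlap for the other 7 genes. On TPM the difference of Flt1 stays above 0 (0.09). That of Flt4 is below 0 (−0.09), as is the median of all tested genes (−0.15).

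Flt1 (ENSMUSG00000029648, GRCm38 chromosome 5: 147561604 to 147726011, minus strand) had the largest positive difference among the receptors. Its level was 66.9, 60.8 and 68.0 CPM in controls 1 to 3 and 72.8, 78.2 and 82.1 CPM in mitochondria 1 to 3. Every mitochondria library lay above every control, with control 2 lowest and mitochondria 3 highest. The log2 fold change was 0.25 (SE 0.06, 95% interval 0.12 to 0.38), equal to 19.1% more, with adjusted p = 0.0503 in edgeR, rank 239 by p where 235 genes passed. DESeq2 gave 0.25 with adjusted p = 0.00409. The gene was also called without mitochondria 1, at 0.30 (adjusted p = 0.0330 in edgeR), and not without any other single library, at 0.20 to 0.28. The value was 0.16 in limma on log2(FPKM + 1), 0.09 on log2(TPM + 1), and 0.07 (SE 0.09) in edgeR with the ribosomal share as a covariate. The median of all tested genes was −0.05 on log2(FPKM + 1) and −0.15 on log2(TPM + 1). GENCODE release M21 lists 6 transcripts of Flt1, of which 2 are protein coding, and the table has 1 row for the gene, so soluble and membrane forms were not separated.

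Kdr (ENSMUSG00000062960, chromosome 5: 75932827 to 75978458, minus strand) was at 1416, 1421 and 1463 CPM in controls and 1443, 1459 and 1503 CPM with mitochondria. The groups overlapped and the spread within each was about as wide as the gap between them. The log2 fold change was 0.04 (SE 0.03, 95% interval −0.03 to 0.10) with an adjusted p of 0.596 in edgeR, and the sign turned with library totals in place of TMM (−0.01), on deposited FPKM (−0.03) and on TPM (−0.12). These 3 scalings moved the median of all tested genes to −0.05, −0.05 and −0.15, from 0.0011 with TMM. A ratio of genes within a library does not depend on that scaling. Flt1 amounted to 3.16%, 2.86% and 3.11% of Kdr in FPKM in controls 1 to 3 and to 3.37%, 3.59% and 3.65% in mitochondria 1 to 3, without overlap. A ratio shows unequal change and not which gene moved.

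Flt4 (ENSMUSG00000020357, chromosome 11: 49609263 to 49652739, plus strand) was at 225, 222 and 227 CPM in controls and 239, 229 and 240 CPM with mitochondria. The groups did not overlap, but mitochondria 2 lay close to control 3. The log2 fold change was 0.07 (SE 0.04, 95% interval −0.0079 to 0.15) with an adjusted p of 0.370 in edgeR. On TPM it was −0.09, where the median of all tested genes was −0.15.

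The neuropilins differed little between groups in CPM. Nrp1 (ENSMUSG00000025810, chromosome 8: 128358604 to 128462081, plus strand), which binds heparin-binding VEGF forms and class 3 semaphorins, was at 89.0, 88.3 and 89.5 CPM in controls and 87.0, 89.3 and 83.4 CPM with mitochondria. Mitochondria 2 lay among the controls and the other mitochondria libraries below them. Its log2 fold change was −0.04 (95% interval −0.13 to 0.05, adjusted p = 0.716 in edgeR). Nrp2 (ENSMUSG00000025969, chromosome 1: 62703285 to 62818695, plus strand), known for Vegfc and semaphorin binding, was at 369, 381 and 380 CPM in controls and 372, 376 and 377 CPM with mitochondria. Here all mitochondria libraries lay inside the control range, and the log2 fold change was −0.0071 (95% interval −0.08 to 0.06, adjusted p = 0.940 in edgeR). On deposited FPKM neither gene's groups overlapped, but the share of all tested genes without overlap on that scale was not counted. Nrp1 was at 8.07 to 8.23 FPKM in controls and 7.30 to 7.82 FPKM with mitochondria, and Nrp2 at 27.64 to 29.33 against 26.70 to 27.61 FPKM. On TPM their log2 fold changes were −0.19 and −0.16, and on both scales the median of all genes was also lower (−0.05 and −0.15). Nrp2 exceeded Nrp1 in FPKM by 3.43 to 3.57 times in controls and 3.48 to 3.74 times with mitochondria.

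Among the ligands, Pgf, which binds Flt1 and not Kdr, was the most abundant in FPKM. Pgf (ENSMUSG00000004791, chromosome 12: 85166635 to 85177790, minus strand) was at 435, 443 and 443 CPM in controls and 422, 444 and 418 CPM with mitochondria. Mitochondria 2 was the highest of the 6 libraries and the other mitochondria libraries were the lowest. The log2 fold change was −0.04 (95% interval −0.11 to 0.03, adjusted p = 0.612 in edgeR). On deposited FPKM the groups did not overlap, at 133 to 139 FPKM in controls and 123 to 129 FPKM with mitochondria. On that scale the median of all genes was also lower, and the share of genes without overlap was not counted.

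Vegfa (ENSMUSG00000023951, chromosome 17: 46016993 to 46032369, minus strand), the main ligand of Kdr, was at 31.5, 36.4 and 34.8 CPM in controls and 28.7, 38.4 and 33.1 CPM with mitochondria. The mitochondria group held both the lowest and the highest library. Its log2 fold change was −0.03 (SE 0.10, 95% interval −0.26 to 0.19) with an adjusted p of 0.910 in edgeR, and the sign turned without control 2 (0.01) or mitochondria 1 (0.06). Pgf exceeded Vegfa in FPKM by 18.0 to 20.4 times in controls and 17.1 to 21.7 times with mitochondria. GENCODE release M21 lists 13 Vegfa transcripts, which the table does not separate.

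Vegfb (ENSMUSG00000024962, chromosome 19: 6982473 to 6987651, minus strand), a ligand of Flt1, was at 20.5, 16.9 and 19.1 CPM in controls and 17.6, 16.9 and 17.6 CPM with mitochondria. Control 2 lay just below all mitochondria libraries and the other controls above them. The log2 fold change was −0.12 (95% interval −0.34 to 0.10, adjusted p = 0.624 in edgeR). Vegfc (ENSMUSG00000031520, chromosome 8: 54077606 to 54187096, plus strand), the Flt4 ligand, held 160 to 225 counts per library, at 2.91, 3.04 and 3.47 CPM in controls and 2.53, 3.53 and 3.21 CPM with mitochondria. Its interval was the widest of the 10, from −0.47 to 0.42 around a log2 fold change of −0.02 (adjusted p = 0.971 in edgeR). The sign turned without control 3 (0.05) or mitochondria 1 (0.10).

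Esm1 (ENSMUSG00000042379, chromosome 13: 113209659 to 113218098, plus strand) had the largest difference of the 10 genes. It was at 12.7, 9.93 and 10.2 CPM in controls and 6.18, 8.22 and 6.59 CPM with mitochondria, from 390 to 827 counts per library. Every mitochondria library lay below every control, with control 1 high among the controls and mitochondria 2 high in its group. The log2 fold change was −0.65 (SE 0.15, 95% interval −0.98 to −0.31), equal to −36.2%, with adjusted p = 0.0546 in edgeR and rank 251 by p. Of all tested genes 0.444% had a lower log2 fold change. DESeq2 gave −0.65 with adjusted p = 0.00310. In edgeR the gene was also called with library totals in place of TMM (−0.70, adjusted p = 0.0240) and without mitochondria 2 (−0.78, adjusted p = 0.0355). On TPM limma called it (−0.75, adjusted p = 0.0243). The median of all tested genes was also below 0 with library totals (−0.05) and on TPM (−0.15). Without any other single library Esm1 was not called, at −0.71 to −0.53. Nor was it called in edgeR without a filter (adjusted p = 0.270) or in limma on log2(FPKM + 1) (adjusted p = 0.0721). With the ribosomal share as a covariate it was at −1.04 (SE 0.24, adjusted p = 0.401 in edgeR). As a share of Kdr in FPKM, Esm1 stood at 3.87%, 3.01% and 3.00% in controls and 1.84%, 2.42% and 1.89% with mitochondria. The span of Gzmk overlaps Esm1 on the opposite strand, and Gzmk held 0 counts in every library.

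**Figure D3:**
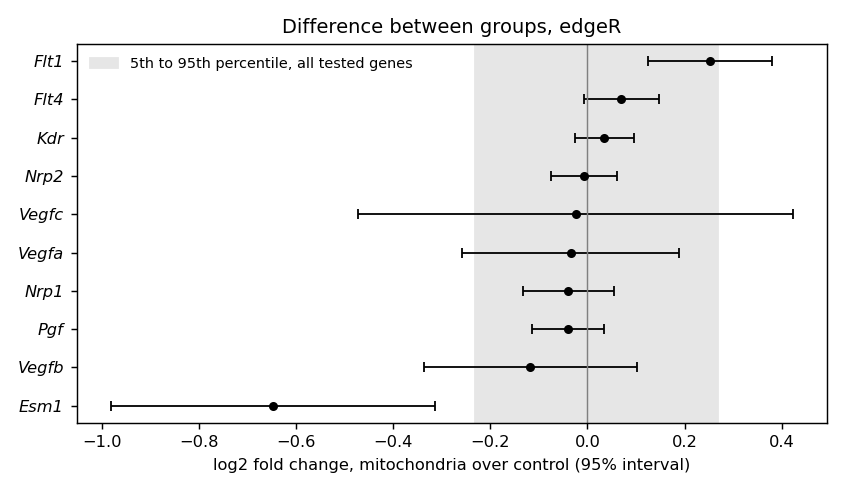
Log2 fold change of each gene (mitochondria over control) with its 95% interval from edgeR, and in grey the range from the 5th to the 95th percentile of all tested genes (−0.23 to 0.27). The intervals of Flt1 and Esm1 lie to one side of 0. The signs of Kdr and Flt4 turn below 0 on TPM, where the median of all tested genes is −0.15.

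**Figure D4:**
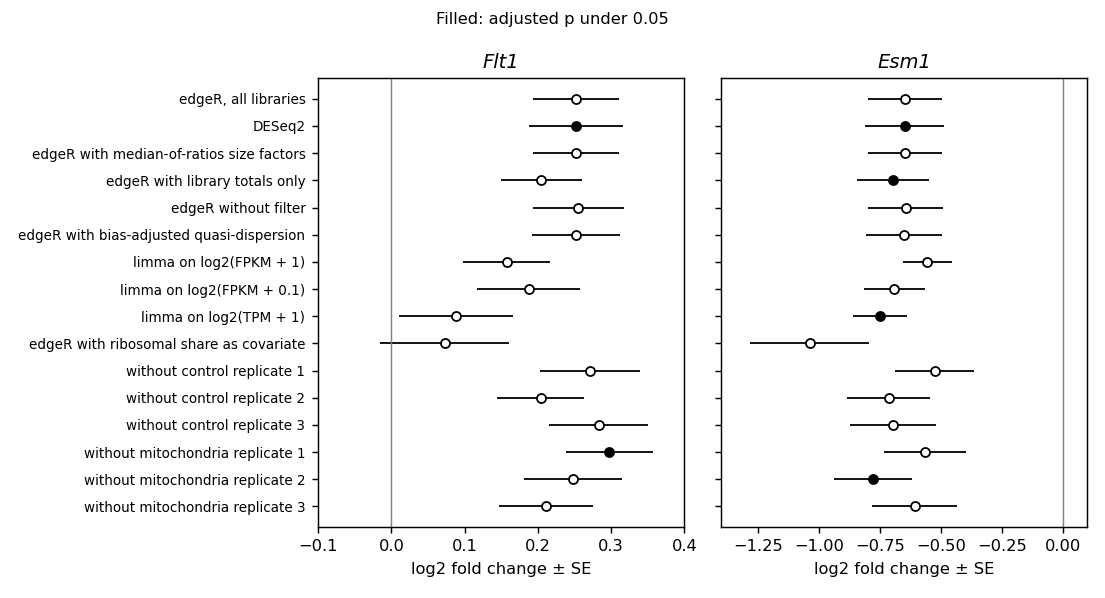
Log2 fold change ± SE of Flt1 (left) and Esm1 (right) in edgeR with all libraries and in the other analyses. Points are filled where the adjusted p was under 0.05, and the fit with the replicate number as a block is not drawn. All values of Flt1 lie above 0, down to 0.07 with the ribosomal share as a covariate, and all values of Esm1 below 0.

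The sequences upstream of Flt1 and Esm1 are shown because these were the members farthest from 0, in opposite directions. They are RefSeq windows (build GRCm38.p6) of 250 bases ending just before the annotated start, which for both genes is the 5′ end given in the deposited table, and all 10 genes had a window. Flt1 is chr5:147726012-147726261 (minus strand) and Esm1 is chr13:113209409-113209658 (plus strand). Capitals mark matches, on either strand, to 8 motifs. These were the AP-1 motif TGACTCA, the cyclic AMP response element TGACGTCA, and the core letters ACGTG of the hypoxia response element. The core of the antioxidant response element was searched as TGACNNNGC, that of TEAD factors as GGAATG and that of the ETS family of factors as GGAAG. A GC box was searched as the letters GGGCGG and a TATA box as the letters TATAAA.
Flt1: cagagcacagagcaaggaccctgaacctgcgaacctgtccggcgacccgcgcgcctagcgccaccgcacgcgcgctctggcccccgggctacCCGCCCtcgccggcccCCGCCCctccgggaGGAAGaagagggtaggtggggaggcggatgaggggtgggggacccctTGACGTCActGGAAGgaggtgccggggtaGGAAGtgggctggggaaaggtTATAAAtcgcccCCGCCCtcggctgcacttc
Esm1: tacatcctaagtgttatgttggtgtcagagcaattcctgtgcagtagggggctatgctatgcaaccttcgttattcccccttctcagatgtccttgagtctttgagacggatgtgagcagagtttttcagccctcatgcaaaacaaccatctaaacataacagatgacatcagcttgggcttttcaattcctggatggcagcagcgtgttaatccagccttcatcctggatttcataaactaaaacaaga
The Flt1 window held TGACGTCA from 81 bases upstream, a motif in 1.55% of 32817 such windows, and TATAAA from 31 bases upstream, in 12.4%. It also held 3 matches each of the ETS motif (64.1% of windows) and the GC box (32.7%), and no 2 of its matches overlapped. The Esm1 window held no match to any of the 8 motifs, and its GC content was 44.0% against 70.4% for Flt1 and a median of 52.4%. Upstream of the other 8 genes the cyclic AMP, AP-1, hypoxia, TEAD and TATA motifs had no match, while the antioxidant response core (10.2% of windows) occurred upstream of Kdr, Vegfc and Pgf. A match is a description of letters and not a bound site.

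Other genes of the VEGF pathway were described in 7 lists, of which some share members. The lists were chosen with earlier results of these data known, so the shares called are a description and not independent evidence. Of all tested genes 0.986% rose and 1.1% fell. In either direction, 16.1% had an unadjusted p under 0.05 in edgeR and DESeq2 called 5.31%. These are the shares to set beside the counts of each list below. Among genes known to be induced by VEGF, 4 of 22 tested fell, none rose and 18 did not pass (3 higher and 4 lower at an unadjusted p under 0.05; DESeq2 called 1 higher and 4 lower). The other 8 of the 30 listed genes lay below the filter. The list median was −0.04 on the log2 scale, with 8 members above 0, where all tested genes had 0.0011. Dusp5, a phosphatase that restrains ERK, was at 72.8 ± 0.610 CPM in controls and fell to 59.8 ± 1.67 CPM, a log2 fold change of −0.28 (SE 0.04) with adjusted p = 0.00884 in edgeR. Ptgs2, the inducible cyclooxygenase, fell by 0.29 (SE 0.05), Rcan1, an inhibitor of calcineurin, by 0.27 (SE 0.06), and Hbegf, an EGF receptor ligand, by 0.21 (SE 0.05). These 4 differ in how far they rest on single libraries. Ptgs2 was called in all 6 fits without a library, Dusp5 in all but that without mitochondria 3, Rcan1 only without mitochondria 1 and Hbegf only without mitochondria 2. With a library left out, 1 to 3 of the list fell, and with limma on log2(FPKM + 1) 1 was called. In edgeR without a filter none of the list was called. With the ribosomal share as a covariate, where 3 genes of the whole table passed, none of the 4 did, at log2 fold changes of −0.27 for Dusp5, −0.25 for Ptgs2, −0.29 for Rcan1 and −0.30 for Hbegf.

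**Figure D5:**
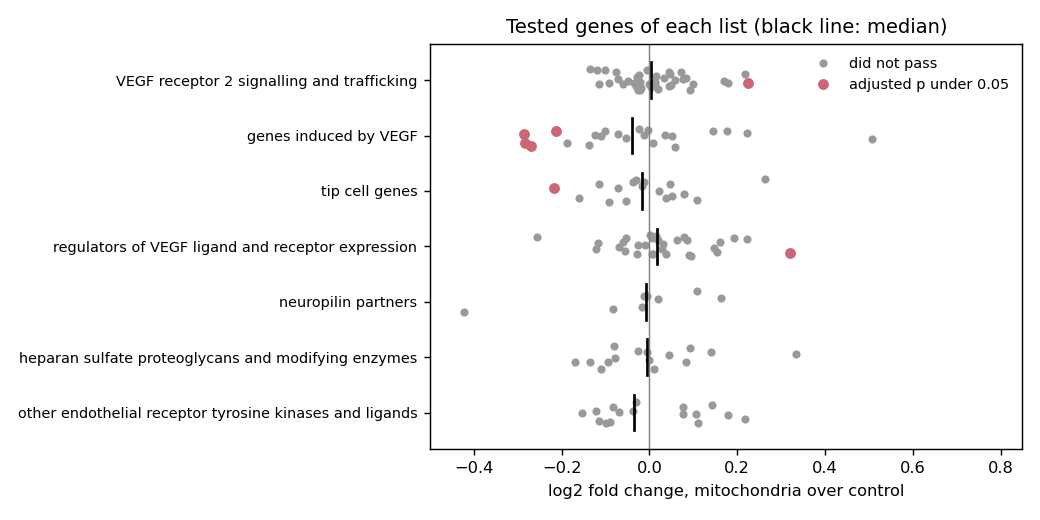
Log2 fold change of the tested genes of 7 lists, 1 point a gene, with the median as a black line and genes with an adjusted p under 0.05 in red. The 4 red points of the list of genes induced by VEGF lie between −0.29 and −0.21, and the medians of all lists lie within −0.04 to 0.02.

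Among signalling and trafficking proteins of VEGF receptor 2, 1 of 42 tested genes rose and none fell (4 higher and 3 lower at an unadjusted p under 0.05; 2 higher and 1 lower in DESeq2), with a median of 0.0030. Mapk3, the kinase ERK1, was at 196 ± 7.93 CPM in controls and rose to 229 ± 8.37 CPM, a log2 fold change of 0.22 (SE 0.04) with adjusted p = 0.0208 in edgeR, and was not called without control 2, control 3 or mitochondria 1. Its call was also lost in edgeR with library totals (adjusted p = 0.0520), without a filter (adjusted p = 0.156) and with the ribosomal share as a covariate (adjusted p = 0.777). In limma it was lost on log2(FPKM + 1) (adjusted p = 0.149) and on TPM, where the log2 fold change was 0.07 (adjusted p = 0.448). The median of all tested genes on those scales was −0.05 and −0.15. Epn1, an epsin of clathrin-mediated uptake, was at 0.18 (SE 0.05, adjusted p = 0.0916 in edgeR) and at 0.02 on TPM. Among regulators of VEGF ligand and receptor expression, 1 of 30 rose and none fell (6 higher and 1 lower unadjusted; 2 higher and 0 lower in DESeq2), with a median of 0.02. Egln3, an oxygen-sensing prolyl hydroxylase, rose by 0.32 (SE 0.07, adjusted p = 0.0447 in edgeR), called only without mitochondria 1 among the fits without a library. It was at 0.16 with the ribosomal share as a covariate (adjusted p = 0.873 in edgeR) and at 0.16 on TPM (adjusted p = 0.192 in limma). The call was also lost in limma on log2(FPKM + 1) (adjusted p = 0.169) and in edgeR without a filter (adjusted p = 0.314). Epas1, the hypoxia-inducible factor HIF-2α, was at 0.19 (SE 0.06, adjusted p = 0.139 in edgeR) and at 0.03 on TPM.

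Of 17 tested tip cell genes Lamb1, a laminin chain, fell by 0.22 (SE 0.03, adjusted p = 0.00893 in edgeR; not called without control 3), none rose, and the median was −0.02 (0 higher and 2 lower unadjusted; 0 and 1 in DESeq2). Apln, the tip cell peptide apelin, was at −0.07 (SE 0.03, adjusted p = 0.299 in edgeR). Of 8 tested neuropilin partners edgeR with TMM called none (2 higher and 2 lower unadjusted; DESeq2 called 1 lower), with a median of −0.0090. Sema3e, a semaphorin that binds plexin D1 directly, was at 26.4 ± 2.57 CPM in controls and 19.7 ± 1.39 CPM with mitochondria. Its log2 fold change was −0.42 (SE 0.10) with adjusted p = 0.0545 in edgeR. Sema3f, a ligand of Nrp2, was at 0.16 (SE 0.06) and at 0.0024 on TPM, where the median of all tested genes was −0.15. Sema3e was called in edgeR with library totals (−0.47, adjusted p = 0.0312) and with a bias-adjusted quasi-dispersion (−0.42, adjusted p = 0.0426). It was called in no fit without a library, and was at −0.28 with the ribosomal share as a covariate. With library totals the median of all tested genes was −0.05. Of 15 heparan sulfate proteoglycans and their enzymes edgeR with TMM called none (2 higher and 2 lower unadjusted; 1 and 1 in DESeq2), with a median of −0.0058. Hspg2, perlecan, was at −0.14 (SE 0.03, adjusted p = 0.0590 in edgeR) and Sdc4, syndecan 4, at 0.33 (SE 0.10, adjusted p = 0.130 in edgeR). Hspg2 was called in edgeR with library totals (−0.18, adjusted p = 0.0265) and with the bias-adjusted quasi-dispersion (−0.14, adjusted p = 0.0488). It was called in no fit without a library, and was at −0.12 with the ribosomal share as a covariate. Of 16 other endothelial receptor kinases and ligands edgeR with TMM called none (3 higher and 1 lower unadjusted; 1 and 0 in DESeq2), with a median of −0.03. Tek, the angiopoietin receptor, was at 0.22 (SE 0.08, adjusted p = 0.203 in edgeR). It was called without mitochondria 1 and in no other fit without a library. With the ribosomal share as a covariate Tek was at 0.0013, and on TPM at 0.05. Ephb4 was at 0.11 (SE 0.04; −0.05 on TPM).

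To find genes with a like pattern, 8693 genes were ranked by their correlation with each member over the 6 libraries. For Esm1 the highest Pearson correlations of log2 CPM were with Adk (0.992), Rapgef3 (0.989) and Ndfip2 (0.988), and 170 genes exceeded 0.9. For Flt1 they were with Nap1l4 (0.993), Ednrb (0.992) and Upp1 (0.988), and 157 genes exceeded 0.9. For Kdr they were with Castor1 (0.982), Zfp143 (0.978) and Nt5dc1 (0.976), and 56 exceeded 0.9. These correlations include the difference between the groups, and the points share each library's depth and composition. Of the 9 genes, Ednrb, the endothelin B receptor, and Adk, adenosine kinase, passed the test, with log2 fold changes of 1.09 and −0.21.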

How the data were processed

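RNA of 6 libraries was analysed, 3 per group by the treatment label. The authors deposited raw counts per gene, per the file headers, beside FPKM values. The submitters' processing notes name cutadapt 1.9, HISAT2 2.2.1, StringTie 2.1.6, DESeq2, edgeR and GRCm38. Settings, strand and the handling of shared reads: not given in the sources used here.

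Genes with a deposited FPKM of at least 1 in at least 3 libraries were tested (11255, all 10 members among them) with edgeR 4.0.16 in R 4.3.3 (TMM, glmQLFit and glmQLFTest, two-sided), with Benjamini-Hochberg adjustment over all of them at 0.05. SE was derived from the fold change and its F statistic, and 95% intervals use the test's degrees of freedom. Scripts were tested on simulated data. Alternatives were DESeq2 1.42.0, limma 3.58.1 with trend, other scalings, no filter, the replicate number, the ribosomal share as a covariate, and each library left out. Alternatives for the lists were added after seeing the data. The members and lists were chosen with earlier results of these data known. Genes named were all members, the lowest p-values of each list (up to 4 genes), and for each member the 3 genes of highest correlation among those of at least 10 CPM, passing over predicted gene models; those of Esm1, Flt1 and Kdr are given. Members held from 160 counts (Vegfc) to 95463 (Kdr) per library.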

Additional observations from a re-analysis of the deposited data

How the results depend on the processing

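Direction and side of the threshold were compared over 16 alternatives. Flt1, Esm1, Nrp1, Vegfb and Pgf kept their direction in all 16. The number of genes called over the whole table moved from 235 to 597 with DESeq2, 353 with library totals only, 22 without a filter, 39 and 36 with limma on log2(FPKM + 1) and log2(FPKM + 0.1), and 3 with the ribosomal share as a covariate. The ribosomal share did not overlap between the groups, so this covariate and the treatment cannot be told apart. Without 1 library the number of genes called was 68 to 233. The share of calls that were higher was 47.2%, against 17.3% with library totals only, 27.3% without a filter, 17.9% and 16.7% with limma on FPKM, 6.10% (of 328 calls) on TPM, and 33.3% with the covariate. Flt1 was called with DESeq2 (log2 fold change 0.25) and without mitochondria 1, with 0.20 to 0.30 over the left-out libraries. Esm1 was called with DESeq2 (−0.65), library totals only (−0.70), limma on TPM (−0.75) and without mitochondria 2, with −0.78 to −0.53 over the left-out libraries. Kdr turned sign with library totals only (−0.012), limma on log2(FPKM + 1) and log2(FPKM + 0.1) (both −0.026) and TPM (−0.12), Flt4 on TPM (−0.088), Ephb4 on TPM (−0.047), and Nrp2 with the covariate (0.0042). Over the left-out libraries Nrp2 ranged from −0.022 to 0.00048, Vegfa from −0.15 to 0.063 and Vegfc from −0.13 to 0.10. The cause was not tested. Among the members, Vegfc held the fewest counts and had the widest interval.

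Controls and mitochondria libraries share replicate numbers, and the labels do not state whether a number marks a shared culture or day. Deviations of the libraries from their group means correlated at 0.05, 0.04 and 0.01 for numbers 1, 2 and 3. The numbers were not treated as pairs, but these correlations do not settle whether they are. With the replicate number as a block 394 genes were called in edgeR, against 235 without it. Among them were Flt1 (0.25, adjusted p = 0.0258), Epas1 (0.19, adjusted p = 0.0230) and Hspg2 (−0.14, adjusted p = 0.0252). No library correlated best with its own number.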

Other observations

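Vegfd, the remaining VEGF ligand gene, lay below the filter and is not among the 10 genes. Its row held 62, 55 and 38 counts in controls 1 to 3 and 56, 101 and 124 counts in mitochondria 1 to 3. In FPKM these were 0.345, 0.301 and 0.212 against 0.317, 0.607 and 0.735. Mitochondria 1 lay inside the control range and the other mitochondria libraries above it. In edgeR without a filter the log2 fold change was 1.01 (SE 0.41, adjusted p = 0.584).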
